A study of Mus musculus with 4 samples.

Results

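Beta-oxidation breaks fatty acids down to acetyl-CoA in the mitochondrial matrix, and the tricarboxylic acid (TCA) cycle oxidizes that acetyl-CoA together with the acetyl-CoA made from pyruvate. The 41 genes described here encode the carnitine shuttle, the acyl-CoA dehydrogenases, the enzymes of the later steps of beta-oxidation, the electron transfer flavoprotein, the enzymes by which pyruvate enters the cycle, and the cycle itself. They were taken by gene name from a list of pathway enzymes, which was drawn up with earlier results of these data known, and all 41 were found among the 23875 genes listed. Of these, 20 belong to beta-oxidation and 21 to pyruvate entry and the TCA cycle.

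RNA was sequenced in 4 libraries, 2 from the line ID8-P0 and 2 from the line ID8-PW2, whose cells had all been held in suspension for 24 h on a non-adherent coating in medium with 4% fetal bovine serum. ID8 is a mouse ovarian cancer line that arose in culture from ovarian surface epithelial cells of C57BL/6 mice, and the ID8-P0 cells carry GFP and luciferase. ID8-PW2 was derived from these ID8-P0 cells and grown from a tumor of the peritoneal wall after 2 passages through immunocompetent C57BL/6 mice. Each group thus stands for a single line. Both ID8-P0 libraries shared sequencing lane 3, whereas those of ID8-PW2 used lanes 4 and 8, which means that lane and line cannot be told apart.

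The 4 count columns have names found in none of the sample labels, and they were given to no sample. Values per library, depth per library and a comparison of ID8-PW2 with ID8-P0 are therefore not given. What follows is the mean level of each gene over the 4 libraries of both lines, in CPM (counts scaled to a common library size), and its spread. The spread is the biological coefficient of variation (BCV), the square root of the authors' edgeR dispersion in percent. Whether that dispersion was estimated within each line or over all 4 libraries together is not given in the sources used here. If it was estimated within each line, the spread leaves out any difference between the lines. It leaves out counting error. Because long transcripts collect more reads, genes are compared per kilobase (kb) of their longest protein-coding transcript. A ratio of 2 genes is taken as beyond the spread where it departs from 1 by more than their combined BCV. No test stands behind this. Means and ratios over both lines need not hold in either line.

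The RNA carried the markers that its label calls for. All 7 epithelial and ovarian surface markers reached 1 CPM, led by the keratins Krt19, at 938 CPM, and Krt18, at 501 CPM, with the mesothelial genes Wt1 at 153 CPM and Msln at 101 CPM. Krt7 was the lowest of them at 1.91 CPM. The markers of adipocytes (4 genes), hepatocytes (3) and skeletal muscle (3), tissues with high rates of fatty acid oxidation or storage, all stayed below 1 CPM, with a highest value of 0.380 CPM for Apoa1. Of 7 listed leukocyte markers, 2 reached 1 CPM, Cd68 at 13.0 CPM and Csf1r at 1.88 CPM, while the pan-leukocyte gene Ptprc was at 0.224 CPM. Of 4 endothelial markers only Pecam1 did, at 4.62 CPM. A single gene, Gm26924, took 29.7% of all CPM, and the 41 enzyme genes together took 0.227%, or 0.323% without that gene.

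All 41 enzyme genes reached a mean of 1 CPM, against 56.5% of the 20674 protein-coding genes listed, and 39 of them reached 10 CPM, against 66.2% of the 11596 protein-coding genes of at least 1 CPM that have an annotated length. Their median was 39.7 CPM, beside 18.5 CPM in that background. Per kb, the median was 23.0 CPM, beside 6.01 CPM, and 38 of the 41 lay above the background median. A total of 14 lay above the 90th percentile of the background. Both counts were lower with the union of all exons as the length and with no correction for length. The median enzyme gene was higher than 86.0% of the background per kb and than 71.3% of it with no correction for length. This difference was not tested.

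The levels spanned 117-fold per kb. Malate dehydrogenase Mdh2, at 61.1 CPM per kb, Sdha, at 58.0, and Cpt1a, at 56.2, were at the top and neighbours among them differed by less than their combined BCV. With exon union lengths Sdha was highest and Mdh2 ranked 8, and with no length correction Cpt1a was highest and Mdh2 ranked 7. Ehhadh, at 0.746 CPM per kb, and Cpt1b, at 0.521 CPM per kb, were lowest. The 39 genes of at least 10 CPM lay within 12.3-fold of each other per kb, between Suclg2 at 4.97 CPM per kb and Mdh2. Of the 40 neighbouring pairs in this order, 29 differed by less than their combined BCV. They include those among the top 3 genes and each gene and the next from Idh2 down to Pdha1. The BCV describes single libraries, so whether the order of these means is resolved was not tested. The widest step beyond the spread was the 6.66-fold one from Suclg2 down to Ehhadh.

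**Figure D1:**
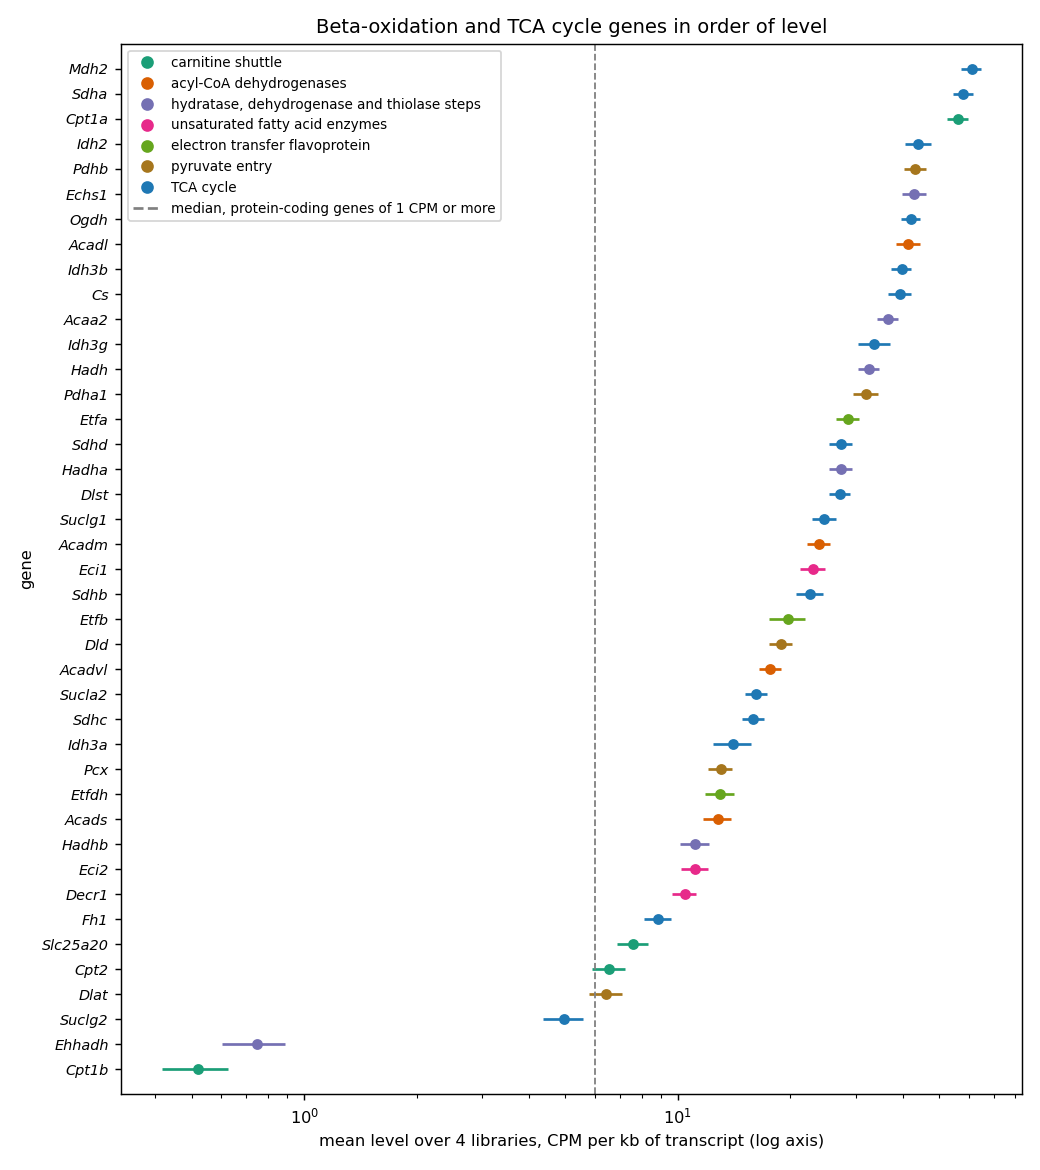
The 41 enzyme genes in order of mean level over the 4 libraries, in CPM per kb of transcript on a log axis, with bars of 1 BCV to each side and colours for the role of the enzyme. From Mdh2 at 61.1 to Suclg2 at 4.97 CPM per kb the points follow each other closely, Ehhadh and Cpt1b stand apart below 1 CPM per kb, and the dashed line is the background median of 6.01 CPM per kb.

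The carnitine shuttle carries long-chain fatty acids into mitochondria. Carnitine palmitoyltransferase 1, on the outer membrane, is its rate-limiting enzyme and exists as a liver isoform, Cpt1a, and a muscle isoform, Cpt1b. Cpt1a was the most abundant of all 41 transcripts by read share, with a mean of 243 CPM and a BCV of 6.50%. Cpt1b was the least abundant, with 1.51 CPM and a BCV of 19.9%. Per kb the liver isoform was 108-fold higher than the muscle isoform, and with the union of all exons as the length it was 71.0-fold higher. GENCODE release M21 also annotates a protein-coding gene that overlaps Cpt1b on the same strand, Gm44502, so part of these reads may be shared with it.

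The steps that follow Cpt1a in the shuttle were much lower. The translocase Slc25a20, which exchanges acylcarnitine for carnitine across the inner membrane, had a mean of 13.6 CPM. Cpt2, which rebuilds the acyl-CoA inside, had a mean of 15.6 CPM. Cpt1a exceeded Cpt2 8.57-fold per kb with a combined BCV of 12.1%, 4.88-fold with exon union lengths and 15.6-fold with no length correction. Slc25a20 and Cpt2 stood at 7.60 and 6.56 CPM per kb, a difference just beyond the spread whose direction turned with exon union lengths and with no length correction. The carnitine shuttle thus held both the highest and the lowest read share of the set.

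The bases before the RefSeq start of Cpt1a are shown because it had the largest read share of the set. The gene is listed on chromosome 19 from 3323301 to 3385732, on the plus strand. The stretch below covers chr19:3323181-3323284 of GRCm38, bases 120 to 17 before the start, and ends where an exon of another annotated Cpt1a transcript begins. Capitals mark AGGTCA, the element bound by many nuclear receptors, and the GC box GGGCGG, each on either strand.
Cpt1a: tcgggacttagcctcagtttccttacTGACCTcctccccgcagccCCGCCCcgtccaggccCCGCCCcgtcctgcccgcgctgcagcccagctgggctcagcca

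The acyl-CoA dehydrogenases start each round of beta-oxidation and differ in the chain length they prefer. All 4 were expressed, from 23.9 to 79.3 CPM. The long-chain enzyme Acadl was highest, with 41.4 CPM per kb. The medium-chain enzyme Acadm reached 23.8 CPM per kb, the very-long-chain enzyme Acadvl 17.7, and the short-chain enzyme Acads 12.8 CPM per kb. Acadl exceeded Acadm 1.74-fold and Acadvl 2.34-fold per kb, each with a combined BCV near 10% (9.95% and 9.99%), and these directions held with exon union lengths, at 3.17-fold and 2.78-fold. Acadl was also 3.24-fold higher than Acads per kb.

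Acadm was the only one of the enzyme genes whose RefSeq window held AAGGTCA, the extended element bound by estrogen-related receptors, which in other cell types drive oxidative genes. The stretch below is chr3:153944784-153944893 of GRCm38, minus strand, bases 250 to 141 before the start. Capitals mark that element on the reverse strand and, further on, the core GCGCATGCG of nuclear respiratory factor 1, also on the reverse strand.
Acadm: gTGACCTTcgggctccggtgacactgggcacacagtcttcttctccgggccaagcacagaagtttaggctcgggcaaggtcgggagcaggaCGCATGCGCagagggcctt

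After dehydrogenation, short chains are hydrated by Echs1, oxidized by Hadh and cleaved by the thiolase Acaa2. These 3 matrix enzymes had 42.9, 32.5 and 36.5 CPM per kb in that order of steps. Exon union lengths gave 8.07, 11.7 and 36.5 CPM per kb, so that Echs1 went from the highest to the lowest. Without length correction Echs1 was again the highest, at 66.8 CPM. Long chains go through the mitochondrial trifunctional protein, in which Hadha carries the hydratase and dehydrogenase activities and Hadhb the thiolase. Hadha had a mean of 110 CPM with a BCV of 7.12%, and Hadhb had 22.8 CPM with a BCV of 8.72%. Per kb the alpha subunit was 2.46-fold higher than the beta subunit, with a combined BCV of 11.3%, with exon union lengths it was 3.65-fold higher, and with no length correction 4.83-fold. The level of Hadh was above that of Hadha per kb but below it with exon union lengths and with no length correction, so their order is not settled.

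The genes of the trifunctional protein lie head to head on chromosome 5. Hadha runs on the minus strand from 30118301 to 30155162 and Hadhb on the plus strand from 30155248 to 30184593, with 85 bases between them. The whole gap is chr5:30155163-30155247 of GRCm38, read on the plus strand. It is shown because the listed spans of both genes begin at its edges and their levels were unlike. The RefSeq start of Hadha is not at the gap, since its only GC box in the searched window lay at bases 183 to 188 before it. Capitals mark 2 GC boxes, GGGCGG.
Hadha-Hadhb gap: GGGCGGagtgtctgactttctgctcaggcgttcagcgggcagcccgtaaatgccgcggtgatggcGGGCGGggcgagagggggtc

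Ehhadh encodes the peroxisomal bifunctional enzyme, which joins hydratase and dehydrogenase activities in a single chain. It was one of the least expressed enzymes, with a mean of 2.22 CPM and a BCV of 19.1%. Per kb it was above only 7.95% of the background. The D-bifunctional protein Hsd17b4, which carries out the same steps on other substrates, had 35.3 CPM and exceeded Ehhadh 17.6-fold per kb, with a combined BCV of 20.7%. With exon union lengths the ratio was 13.9.

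The bases before the RefSeq start of Ehhadh are shown beside those of Cpt1a, since it was among the lowest of the set. In the 250 bases searched, each of the 2 genes held 2 GC boxes and 1 CCAAT box. The stretch of Cpt1a stops within its CCAAT box, at bases 15 to 19, and that of Ehhadh before a GC box at bases 5 to 10. The stretch is chr16:21787845-21787954 of GRCm38, minus strand, bases 120 to 11 before the start. Capitals mark a GC box, GGGCGG, and a CCAAT box, both on the reverse strand.
Ehhadh: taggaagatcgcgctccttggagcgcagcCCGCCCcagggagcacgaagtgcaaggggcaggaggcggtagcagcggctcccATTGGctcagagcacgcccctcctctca

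Unsaturated fatty acids need isomerases and a reductase in addition. The enoyl-CoA isomerase Eci1 had 23.0 CPM per kb, and its relative Eci2 had 11.1 CPM per kb, a 2.08-fold difference with a combined BCV of 11.3%, which became 3.52-fold with exon union lengths and 1.35-fold with no length correction. The dienoyl-CoA reductase Decr1 had 10.4 CPM per kb. None of the 3 exceeded 30.9 CPM.

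Electrons from the acyl-CoA dehydrogenases pass to the electron transfer flavoprotein, made of Etfa and Etfb, and then through Etfdh to ubiquinone. Etfa had 28.5 CPM per kb, Etfb 19.7 and Etfdh 13.0 CPM per kb. Etfa exceeded Etfb 1.45-fold with a combined BCV of 13.1%, and exceeded Etfdh 2.20-fold with a combined BCV of 11.4%. With exon union lengths the latter ratio was 5.27, and with no length correction these ratios were 2.25 and 1.29. A protein-coding gene of release M21, Gm45233, overlaps Etfb on the same strand, so the reads of Etfb may be shared.

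The pyruvate dehydrogenase complex makes acetyl-CoA from pyruvate with an E1 enzyme of the subunits Pdha1 and Pdhb, the E2 core Dlat, and the E3 enzyme Dld, which other dehydrogenase complexes share. Pdhb had 43.1, Pdha1 31.9, Dld 18.8 and Dlat 6.43 CPM per kb. Dlat was the lowest of them, 6.71-fold under Pdhb and 4.96-fold under Pdha1, and with exon union lengths these ratios were 3.19 and 4.58. With no length correction they were 2.52 and 3.50. Pdhx, the protein that anchors E3 to the core, stood at 5.69 CPM per kb and differed from Dlat by less than their combined BCV of 14.3%, but Dlat was 1.46-fold higher with exon union lengths and 1.82-fold higher with no length correction. The order of Pdha1 and Pdhb turned with exon union lengths and with no length correction. Pyruvate carboxylase Pcx, which fills the cycle with oxaloacetate, had 54.1 CPM or 13.0 CPM per kb.

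The complex is switched off by 4 pyruvate dehydrogenase kinases, which differed widely in level. Pdk1 had a mean of 184 CPM, Pdk3 40.3, Pdk2 19.2 and Pdk4 12.7 CPM. Per kb, Pdk1 was 1.86-fold above Pdk3, 4.15-fold above Pdk2 and 9.75-fold above Pdk4, with combined BCVs of 11.5%, 12.7% and 18.3%. With no length correction these ratios were 4.56, 9.58 and 14.5. The phosphatase subunits that switch the complex on again, Pdp1 and Pdp2, had 10.6 and 6.35 CPM. The subunits of the mitochondrial pyruvate carrier, Mpc1 and Mpc2, had 12.9 and 12.6 CPM.

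In the TCA cycle, 16 genes had a median of 27.2 CPM per kb. Citrate synthase Cs, the entry enzyme, had 115 CPM, or 39.2 CPM per kb. The NADP-dependent mitochondrial isocitrate dehydrogenase Idh2 reached 44.1 CPM per kb and differed from its cytosolic counterpart Idh1, at 46.9 CPM per kb, by less than their combined BCV of 10.4%, whereas with exon union lengths and with no length correction the ratio of Idh2 to Idh1 was 0.762 and 0.711, both beyond it. The NAD-dependent isocitrate dehydrogenase is built of Idh3a, Idh3b and Idh3g. The catalytic subunit Idh3a was the lowest of these at 14.1 CPM per kb, 2.82-fold under Idh3b and 2.39-fold under Idh3g, with combined BCVs of 13.0% and 15.0%. With exon union lengths the ratios were 2.62 and 2.31, and with no length correction 1.77 and 1.23.

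The oxoglutarate dehydrogenase complex uses Ogdh as E1 and Dlst as E2. Ogdh had a mean of 173 CPM and a BCV of 6.04%, and exceeded Dlst 1.55-fold per kb with a combined BCV of 8.84%, 4.05-fold with exon union lengths and 2.31-fold with no length correction. Dhtkd1, a related E1 that acts on oxoadipate, was 47.6-fold below Ogdh. Succinate-CoA ligase joins the common subunit Suclg1, at 24.7 CPM per kb, to either the ADP-forming subunit Sucla2, at 16.2, or the GTP-linked subunit Suclg2, at 4.97 CPM per kb. Sucla2 exceeded Suclg2 3.26-fold with a combined BCV of 14.0%, 2.50-fold with exon union lengths and 2.16-fold with no length correction. Suclg1 stood above Sucla2 per kb, but below it with exon union lengths.

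Succinate dehydrogenase, which is also complex II of the respiratory chain, has 4 subunits. The flavoprotein Sdha had a mean of 168 CPM with a BCV of 5.96%, the lowest BCV of the set, and 58.0 CPM per kb. The iron-sulfur subunit Sdhb had 25.8 CPM, or 22.6 CPM per kb. Of the membrane anchors, Sdhd had 27.3 and Sdhc 15.9 CPM per kb, an order that turned when length was not corrected for. Sdha exceeded Sdhb 2.57-fold, Sdhc 3.64-fold and Sdhd 2.12-fold per kb, with combined BCVs between 8.97% and 10.4%, and by 3.54-, 2.62- and 1.49-fold with exon union lengths. With no length correction the ratios were 6.52, 3.33 and 5.001. Fumarase Fh1, the next enzyme, was among the lowest of the cycle at 23.3 CPM, or 8.85 CPM per kb. Mdh2, which closes the cycle, had 89.0 CPM, and its cytosolic counterpart Mdh1 stood at 66.4 CPM per kb. The ratio of Mdh2 to Mdh1 was 0.920 per kb, just beyond the spread, 0.455 with exon union lengths and 0.631 with no length correction.

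**Figure D2:**
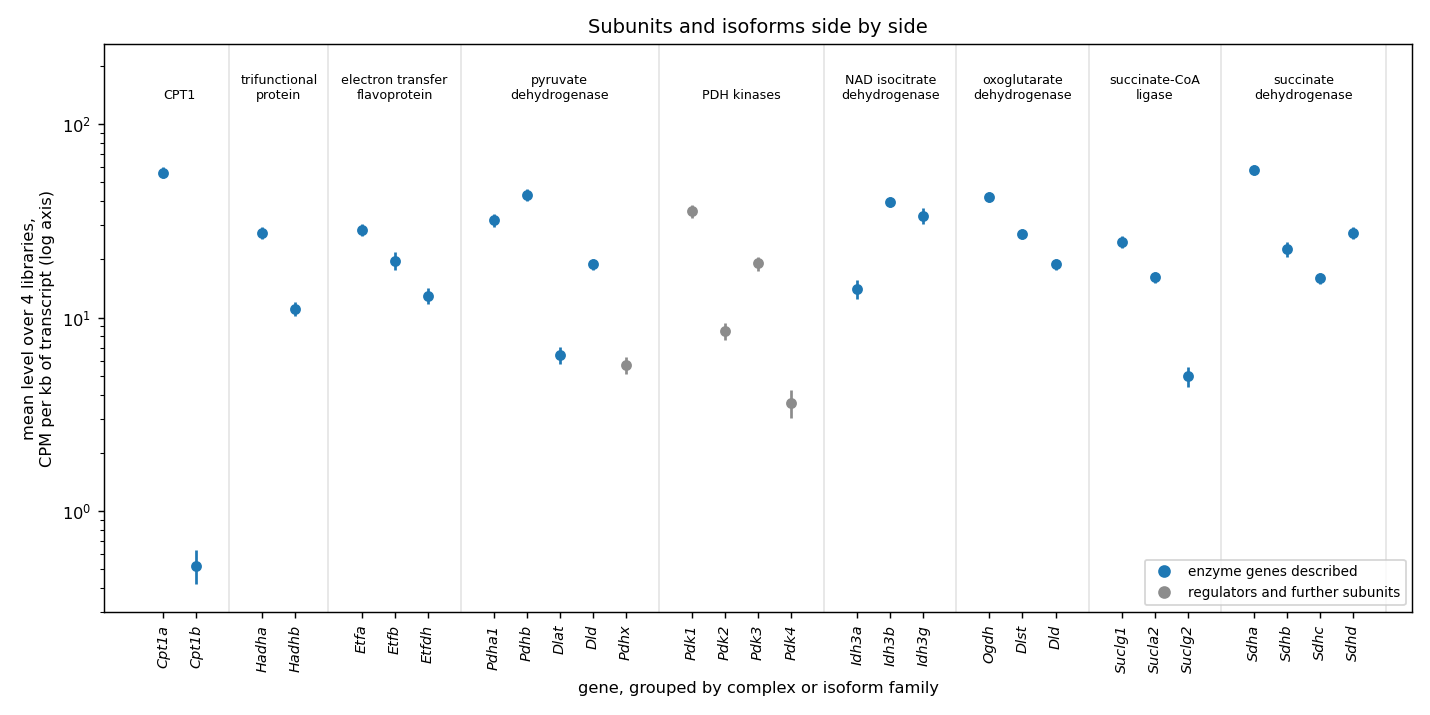
Subunits and isoforms of 9 enzymes or families, each gene as its mean level over the 4 libraries in CPM per kb of transcript on a log axis, with bars of 1 BCV to each side. Blue points are the enzyme genes described and grey points are Pdhx and the 4 kinases. From left to right, the lowest blue points are Cpt1b, Hadhb, Etfdh, Dlat, Idh3a, Dld (in oxoglutarate dehydrogenase), Suclg2 and Sdhc.

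The spread between libraries followed the level, as it did over all genes. The median BCV of the 41 genes was 7.26%, beside 9.69% in the protein-coding background. Set against genes of the same doubling of level, 23 of the 41 had a BCV under the median and 18 had a BCV over it. The low-level genes Cpt1b and Ehhadh had the highest BCVs, 19.9% and 19.1%, next to window medians of 22.1% and 18.1%.

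Idh3a was the single member whose BCV exceeded 1.5 times the median of its window. Its BCV was 11.5% at a mean of 36.3 CPM, beside a median of 7.12% over the 2034 genes of 32 to 64 CPM, and 99.4% of those genes had a lower BCV. Suclg2 followed with 12.3% beside 8.84%, and Idh3g with 9.73% beside 7.12%. Etfb had 11.1% beside 8.84%, and Idh2 had 8.08% beside 6.54%. Idh3b, the partner of Idh3a and Idh3g, had a BCV of 6.20%, under the median of its window. These genes were singled out after their values were seen. Whether 1 library or both lines made this spread cannot be read from the values used here.

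**Figure D3:**
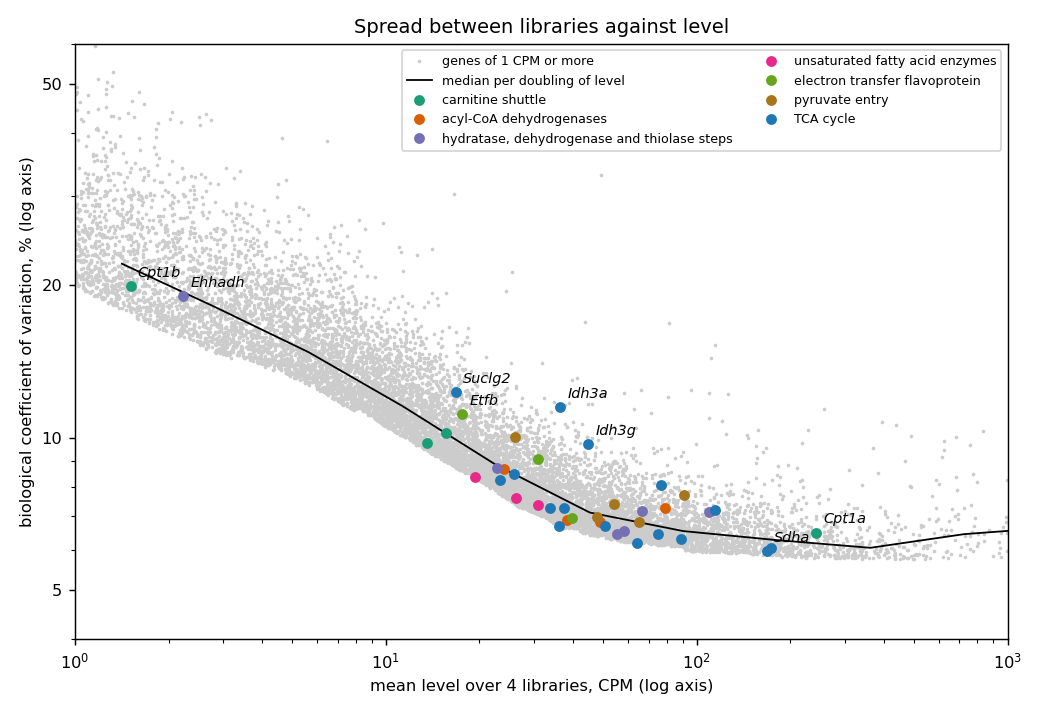
BCV in percent against mean level in CPM, both on log axes, for all genes of 1 to 1000 CPM in grey and the 41 enzyme genes in the colour of their role. The black line joins the median BCV of each doubling of level, and Idh3a, at 36.3 CPM and 11.5%, lies above it by more than any other of the 41 in ratio.

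Of the gene lists set beside the enzymes, those that supply or control them had lower medians per kb than the 23.0 CPM per kb of the 41 genes, whether or not genes below 1 CPM were counted. The highest was that of the citrate and malate enzymes and shuttles, with 19.3 CPM per kb and 18 of 18 genes at 1 CPM or more. Among them were the cytosolic malic enzyme Me1 at 395 CPM and ATP citrate lyase Acly at 159 CPM. The list of mitochondrial import and maintenance had 14.4 CPM per kb, with 23 of 23 genes found at 1 CPM or more and the outer membrane channel Vdac1 at 552 CPM. Without length correction, its median was 49.5 CPM and that of the citrate and malate list 50.9 CPM. Both were above the 39.7 CPM of the 41 genes, and the other lists were below. Medians with exon union lengths were not computed for the lists.

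The peroxisomal list had a median of 11.1 CPM per kb, with 13 of 16 genes at 1 CPM or more. Fatty acid uptake, activation and release had a median of 3.08 CPM per kb over all 19 genes and of 7.76 over the 13 at 1 CPM or more. The acyl-CoA synthetases Acsl4 and Acsl5 had 742 and 340 CPM, while the liver-type synthetase Acsl1 had 9.16 CPM. Per kb, Acsl4 was 59.8-fold above Acsl1, and 157-fold with exon union lengths. The fatty acid translocase Cd36 and the adipocyte binding protein Fabp4 stood at 0.224 and 0.225 CPM.

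Among regulators, 16 of 17 genes reached 1 CPM and the median was 4.15 CPM per kb, or 4.23 over those 16. Ppara, the nuclear receptor known in liver for inducing fatty acid oxidation genes, had 2.13 CPM with a BCV of 20.3%. Ppard had 36.2 CPM and was 17.7-fold above Ppara per kb, and 8.67-fold with exon union lengths. Pparg had 1.64 CPM, and the coactivators Ppargc1a and Ppargc1b had 15.5 and 2.55 CPM. Acacb, the acetyl-CoA carboxylase whose malonyl-CoA inhibits carnitine palmitoyltransferase 1, had 9.70 CPM. It was 6.35-fold below the lipogenic Acaca per kb, and 3.88-fold with exon union lengths. The study reports Acacb higher and Acaca lower in ID8-PW2 than in ID8-P0, so this ratio differs between the lines. The AMP-activated kinase subunit Prkaa1 had 93.8 CPM, and its counterpart Prkaa2 had 0.203 CPM.

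The list of pyruvate entry and pyruvate dehydrogenase control had a median of 5.69 CPM per kb, with 15 of 15 genes at 1 CPM or more. It held the mitochondrial malic enzymes Me2, at 535 CPM, and Me3, at 1.64 CPM. Glutamine and propionate entry had a median of 6.92 CPM per kb, with 13 of 14 at 1 CPM or more, from glutamate dehydrogenase Glud1 at 88.7 CPM to Pycr1 at 0.654 CPM. Branched-chain amino acid and other acyl-CoA dehydrogenase genes had a median of 6.18 CPM per kb, with 23 of 23 at 1 CPM or more. The ketone body enzyme Oxct1 had 210 CPM and was 10.5-fold above Acat1 per kb.

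**Figure D4:**
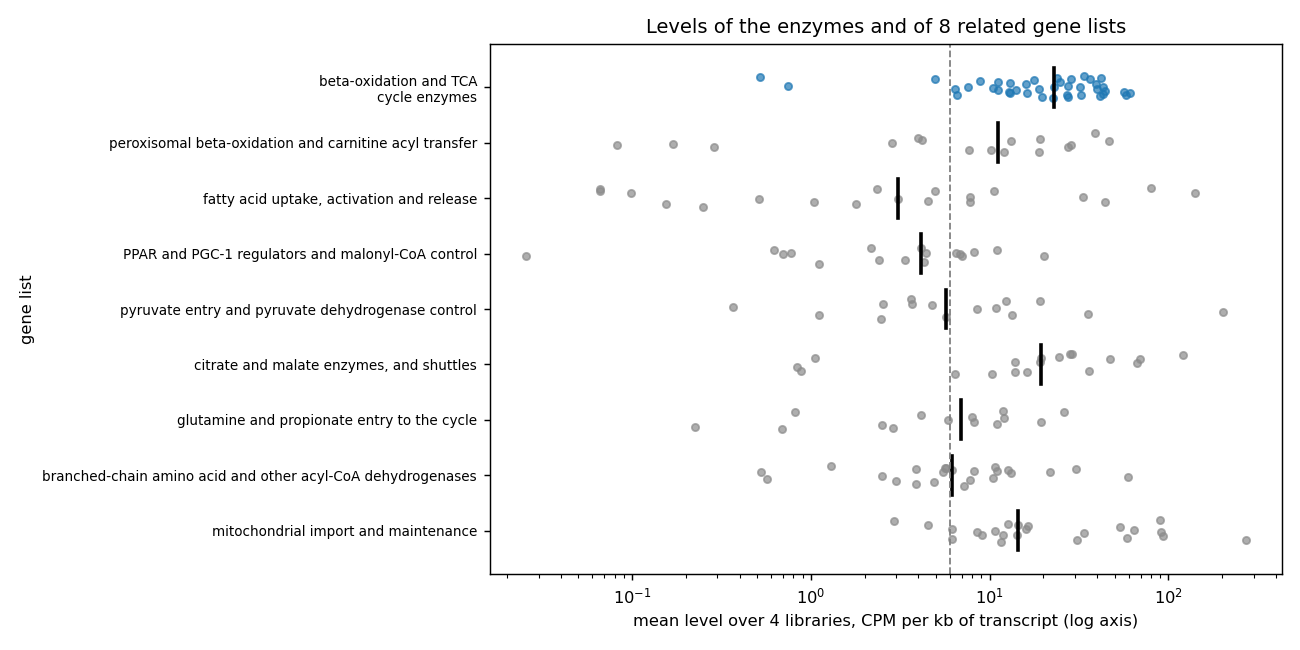
Mean levels over the 4 libraries in CPM per kb of transcript, on a log axis, of the 41 enzyme genes in blue and of 8 related gene lists in grey, with 1 point a gene and a black bar at each median. The enzymes have the highest median per kb, 23.0 CPM, which does not hold without length correction. The bars include genes below 1 CPM, which take the fatty acid uptake, activation and release list to 3.08 CPM per kb. The dashed line, at 6.01 CPM per kb, is the median of protein-coding genes of at least 1 CPM.

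RefSeq gave a window before the start for 36 of the 41 genes, and none was found for Decr1, Sdhc, Cpt1b, Idh3a and Acaa2. In the 250 bases before the start, on either strand, GGGCGG was present in 24 of 36 genes (66.7%), against 65.8% of 8776 expressed protein-coding genes with a window and 35.4% of all 27025 genes. CCAAT was present in 18 of 36, or 50.0%, against 41.02% of the expressed genes. The TATA box TATAAA was found in 0 of 36 and in 7.53% of the expressed genes. AGGTCA, which lies within AAGGTCA, was present in 7 of 36 (19.4%) against 12.9%, in Acadm, Acadvl, Cpt1a, Echs1, Fh1, Sdhb and Sucla2. The element AAGGTCA was present in Acadm alone against 3.42%. GCGCATGCG was present in Acadm, Etfdh and Ogdh (8.33%) against 3.60%, and TGACGTCA, the element of cAMP response factors, in Mdh2 and Ogdh (5.56%) against 3.09%. These are matches of letters in a window and were not tested.

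The 41 genes are spread over 19 chromosomes, with 5 on chromosome 9 and 4 on chromosome 5. Apart from Hadha and Hadhb, the closest were Sdhd and Dlat on chromosome 9, 30.8 kb apart, which had 27.3 and 6.43 CPM per kb. On the same chromosome Idh3a, from 54586511 to 54604661, lies 850 kb from Etfa. Besides the same-strand genes over Cpt1b and Etfb, 8 of the 41 overlap a protein-coding gene on the other strand, among them Hadha, Pdha1, Pcx and Fh1. The authors aligned reads with a strand setting. Whether strand was also used when reads were summed per gene is not given in the sources used here, so reads of these 8 genes may be shared with the partner.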

How the data were processed

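Strand-specific RNA-seq libraries were made as biological duplicates of each line. The authors used CASAVA 1.8.2 for base calls, Trimmomatic 0.22 for trimming, and TopHat2 2.0.6 with Bowtie2 2.0.2 for alignment to the mouse genome, allowing up to 100 hits, and summed reads per gene with at most 2 mismatches. The labels name a human build, whereas the identifiers are mouse, and all 41 have their identifier and chromosome in GENCODE M21 (GRCm38), 35 with the same start or end. The log2 CPM, as deposited, is a mean over the 4 libraries that the authors made with edgeR 3.20.8, with a small prior count, so that 4561 genes share a lowest level of 0.163 CPM. The authors also deposited the dispersion of each gene, a score without a unit that edgeR shrinks toward genes of like level. Which normalization factors and filter they used is not given in the sources used here.

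The 4 count columns matched no label and were used in no step. The planned edgeR fit was therefore not made. Another 5 columns hold the authors' own comparison of the lines (fold change, its log2, p-value, FDR and call) and were not used.

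CPM was 2 to the power of the deposited log2 value, and the BCV the square root of the dispersion. Lengths came from GENCODE M21, and sequences from RefSeq on GRCm38.p6. Percentiles are among protein-coding genes of at least 1 CPM. Exon union and motif searches were tested on simulated data. Values were computed with pandas 2.3.3 and numpy 2.4.6 in Python 3.11.15, and plotted with matplotlib 3.10.9. The members, the 8 gene lists and the markers were chosen with earlier results of these data known. All 41 members, Pdk1 to Pdk4, Ppara and Acacb were to be named whatever their values, and other genes were named after their values were seen. Depth is unknown, so no counting interval is given. A few genes of the lists are not reported here.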

Additional observations from a re-analysis of the deposited data

How the results depend on the processing

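The settings foreseen for the comparison of ID8-PW2 with ID8-P0 were not run, namely DESeq2, other scaling, filters and thresholds, the exact test of edgeR, and leaving out each library. No paired analysis was possible because the count columns could not be given to samples. The settings that were run were chosen after seeing the data. The median level of 23.0 CPM per kb became 12.3 with exon union lengths and 32.8 with CPM rescaled to the total without Gm26924. The median percentile of 86.0 became 71.3 with no length correction, and stayed at 81.2 with exon union lengths and 82.6 against genes of at least 5 CPM. Leaving Gm26924 out of the total raises every CPM, so the counts of genes at 1 and 10 CPM could not fall. They stayed at 41 and 39. Of 50 ratios between genes, only 12 moved by less than the combined BCV of the genes with exon union lengths and 10 with no length, while 34 and 36 moved by more but kept their direction and 4 and 4 turned in direction. The log2 ratio of Cpt2 to Slc25a20 went from -0.21 to 1.22 with exon union lengths and 0.20 with no length, that of Hadh to Hadha from 0.25 to -0.11 and -0.92, and that of Pdha1 to Pdhb from -0.44 to 0.52 and 0.48. That of Suclg1 to Sucla2 went from 0.60 to -0.16 with exon union lengths, and that of Sdhd to Sdhc from 0.78 to -0.59 with no length. These turns come from the length alone, since the reads are the same.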
